A study of Mus musculus with 9 samples.

Results

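The 7 genes that encode subunits of the NMDA receptor were followed through the hippocampus of lupus-prone and control mice. All 7 were found among the 47643 genes of the deposited matrix by matching Ensembl identifiers to gene symbols, namely Grin1, Grin2a, Grin2b, Grin2c, Grin2d, Grin3a and Grin3b. They were taken as a whole family, with earlier results of these data known. Hippocampal polyadenylated RNA was sequenced in 9 libraries at 6 weeks of age. Of these, 3 were from MRL/mpj mice (wild type, untreated), 3 from MRL/lpr mice (MRL-lpr genotype, labelled untreated, with PBS named in the title of the series) and 3 from mice of the same genotype that received mesenchymal stem cells (MRL/lpr+MSC). The lpr mutation lies in Fas, and the strain that carries it is used as a model of lupus on the MRL background that the MRL/mpj controls share. The labels name C57BL/6 as the strain of every library, where the study's methods name MRL/MpJ and MRL/MpJ-Faslpr. The dose, route and time of the stem cells were not given in the sources used here.

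NMDA receptors are glutamate-gated ion channels made of 4 subunits. Every receptor contains the obligatory GluN1 subunit (Grin1), which binds the co-agonist glycine or D-serine, joined by GluN2 subunits, which bind glutamate and set how fast the channel closes and how strongly magnesium blocks it. GluN2A and GluN2B (Grin2a, Grin2b) predominate in the principal neurons of the hippocampus, GluN2C (Grin2c) is best known from cerebellar granule cells and glia, and GluN2D (Grin2d) from interneurons and the young brain. The glycine-binding GluN3 subunits (Grin3a, Grin3b) lower the calcium permeability of receptors that contain them. Calcium entry through the channel activates kinases and phosphatases at the synapse, and in the hippocampus this drives long-term changes in synaptic strength.

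The family is recognised at the sequence level by a short motif at the channel gate, in the third transmembrane segment. Its 21 coding bases are shown 5′ to 3′ on the coding strand, with capitals at the 13 positions where all 7 genes have the same base. The stretch was located in each gene by the same peptide, YTANLAA. The genetic code fixes these 13 positions for that peptide, so their identity was set by the search. The sequences come from GENCODE transcripts of GRCm38.
Grin1: TAcACtGCcAAccTgGCaGCc
Grin2a: TAcACaGCcAAccTgGCtGCc
Grin2b: TAcACtGCcAActTaGCcGCc
Grin2c: TAcACgGCcAAtcTgGCaGCc
Grin2d: TAtACaGCcAAtcTgGCtGCc
Grin3a: TAcACaGCgAActTgGCtGCt
Grin3b: TAcACaGCcAAccTgGCaGCt
In Grin1 the stretch lies in exon 15 of 21 at chr2:25297202-25297222 on the minus strand. Counted against Grin1, between 2 and 5 of the 21 bases differed, with Grin3a the most different at 5 bases and Grin2a, Grin2c and Grin3b the closest at 2. None of these differences changes the peptide. Over whole transcripts the longest exact run that any 2 members share was 34 bases, in Grin2b and Grin2c, and every other pair shared a shorter one. Other annotated genes overlap 6 of the 7 on the genome. Grin1 (chromosome 2, 25291181 to 25319187) overlaps the antisense gene Grin1os, Grin2b (chromosome 6, 135713233 to 136173511) overlaps antisense and noncoding genes, and Grin2d (chromosome 7, 45831883 to 45878378) overlaps Kdelr1 on the other strand. Grin3a (chromosome 4, 49661611 to 49845744) holds Ppp3r2 on its own strand, Grin3b (chromosome 10, 79970715 to 79977190) overlaps Tmem259 on the other, and Grin2c (chromosome 11, 115249169 to 115267243) overlaps a small noncoding gene. Grin2a (chromosome 16, 9567898 to 9995560) overlaps none. Overlap was taken over whole gene spans, and overlap of exons was not computed. The sources used here do not say if strand entered the counting. Where exons overlap, reads of a subunit and of a partner on the other strand may therefore not be told apart.

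The total count per library ran from 19475804 to 26912031, and levels are given as CPM (counts scaled to library size after TMM adjustment). Fas, the gene mutated in MRL/lpr mice, had 1.83 ± 0.183 CPM (SD, n = 3) in MRL/mpj, 1.79 ± 0.469 CPM in MRL/lpr and 1.30 ± 0.445 CPM in MRL/lpr+MSC libraries, so its total count did not separate the genotypes. The libraries of the MRL/mpj group were closest to each other. MRL/lpr+MSC replicate 1 was nearest to MRL/mpj replicate 2 (root mean square log2 difference 0.511, against 0.528 and 0.576 to its own group). Each MRL/lpr library was closer to an MRL/lpr+MSC library than to its own group, and MRL/lpr replicate 3 and MRL/lpr+MSC replicate 3 were the closest pair of all 9 (root mean square log2 difference 0.279). Interneuron markers summed to 1709 and 1416 CPM in these 2 libraries and to 523 to 855 CPM in the other 7. Choroid plexus markers summed to 9682 CPM in MRL/lpr replicate 2 and 4872 CPM in MRL/lpr+MSC replicate 2, and to 100.3 to 1078 CPM elsewhere. In the study's own supplementary table of expression values, of which a shortened copy was read, the 3 columns headed MRL/lpr were constant multiples of the libraries labelled MRL/lpr+MSC here, in 100% of 1811 to 1892 genes. Whether the labels of these 2 groups were exchanged was not tested. If they were, the values given for MRL/lpr, the Grin1 call included, would belong to the stem-cell-treated mice and the reverse. Groups follow the deposited labels throughout, so that MRL/lpr stands for libraries that carry this label. The study presents each column of its MRL/mpj and MRL/lpr data as a separate mouse, while the labels do not say this and nothing was found on the MRL/lpr+MSC group, for which p-values may measure only the spread between libraries.

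At the level of transcripts per length, the FPKM values deposited by the authors placed Grin1 first. Its mean over the 9 libraries was 27.1 FPKM, above 20.8 for Grin2b and 17.9 for Grin2a. Grin1 exceeded Grin2b, and Grin2b exceeded Grin2a, in 9 of 9 libraries, although the ranges over all libraries overlapped. Grin2c followed at 11.2 FPKM, below Grin2a in 8 of 9 libraries. Grin2d and Grin3a were lower, at 4.15 and 3.01 FPKM. Grin3b was at the bottom at 0.113 FPKM, below every other subunit in each library. The order of Grin2d and Grin3a depends on the annotation, because the gene length behind the deposited Grin2d values was 65.8% of its union exon length, whereas the other 5 measured subunits had the same length in both. Grin2d exceeded Grin3a in 8 of 9 libraries by FPKM but in only 3 of 9 by CPM per kilobase of union exons.

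**Figure D1:**
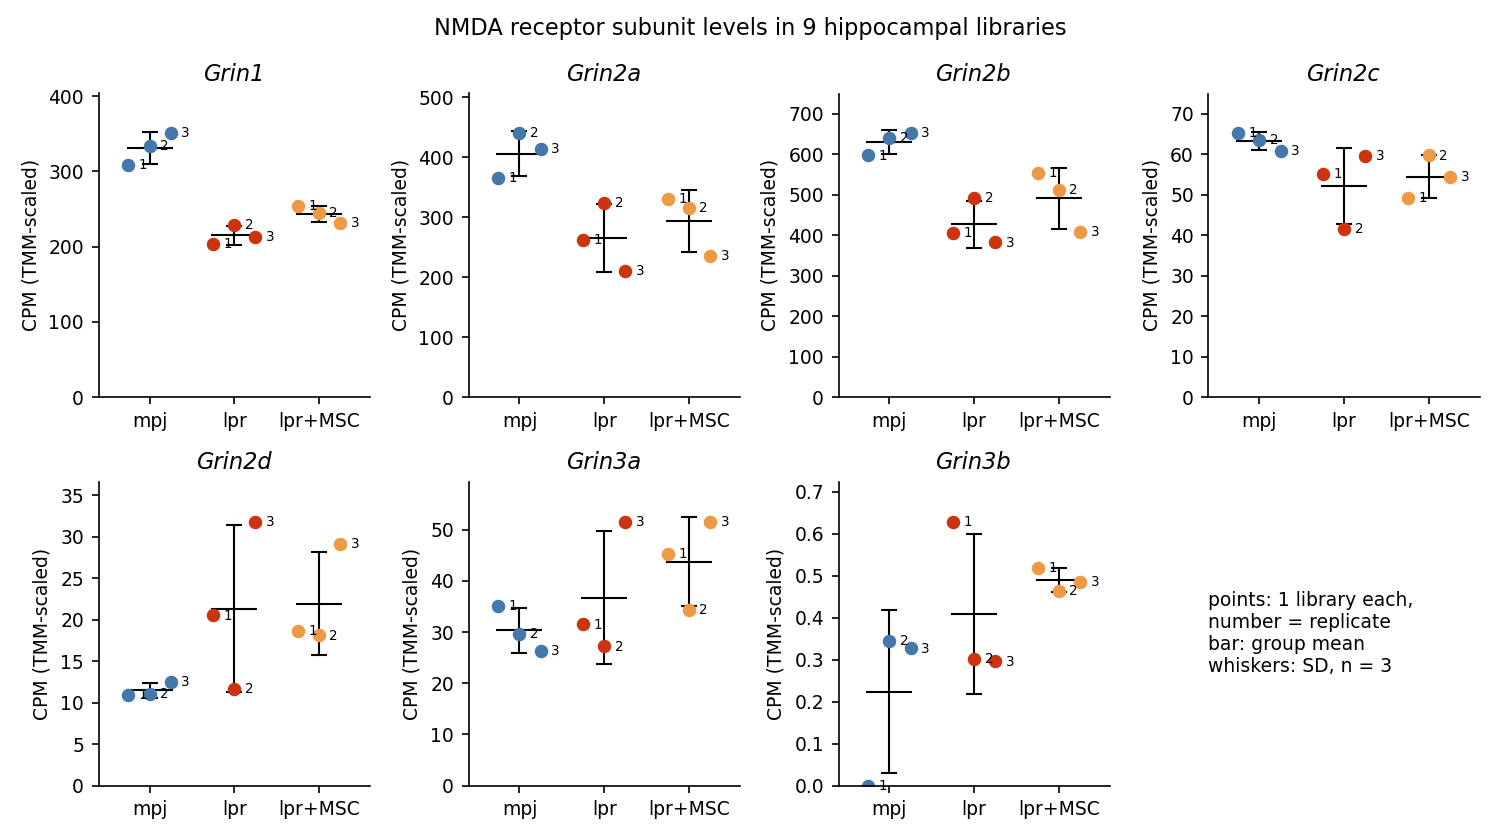
Levels of the 7 NMDA receptor subunits in each of the 9 libraries, in TMM-scaled CPM on a separate vertical axis per gene, starting at 0; points are libraries marked by replicate number, bars are group means and whiskers SD (n = 3). Grin1, Grin2a, Grin2b and Grin2c were highest in the 3 MRL/mpj libraries, and Grin2d and Grin3a were highest in replicate 3 of both MRL/lpr groups.

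The first comparison asked how the subunits differ between MRL/lpr and MRL/mpj hippocampus. Grin1 fell in the libraries labelled MRL/lpr, and Grin2a, Grin2b and Grin2c were lower in every MRL/lpr library than in any MRL/mpj library, while Grin2d and Grin3a had higher means with overlapping libraries. Of the 7 subunits, limma voom tested the 6 that had enough counts. With at least a 1.5-fold change and a Benjamini-Hochberg adjusted p under 0.05 over all 16697 genes tested, 1 subunit passed, Grin1, where 5.79% of all genes passed. The groups did not overlap in 4 of the 6 tested subunits, all lower in MRL/lpr, against 38.0% of all genes tested.

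Grin1, without which no NMDA receptor forms, had 309, 334 and 351 CPM in the 3 MRL/mpj libraries and 204, 229 and 213 CPM in the 3 MRL/lpr libraries. The lowest control library was well above the highest MRL/lpr library. The means were 331 ± 21 CPM (SD, n = 3) and 215 ± 12.6 CPM (SD, n = 3), a 1.53-fold lower level in MRL/lpr (log2 fold change -0.62, standard error 0.08, 95% confidence interval -0.80 to -0.43, adjusted p = 0.00843 by limma voom with Benjamini-Hochberg adjustment). The change lay close to the threshold of 1.5-fold. The call was lost when MRL/mpj replicate 2 (adjusted p = 0.0521), MRL/mpj replicate 3 (adjusted p = 0.0540) or MRL/lpr replicate 1 (log2 fold change -0.58) was left out of the limma voom fit, while the log2 fold change stayed between -0.67 and -0.57.

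Grin2a, which encodes the GluN2A subunit of mature synapses, had 365, 440 and 413 CPM in MRL/mpj and 262, 324 and 211 CPM in MRL/lpr libraries. Its log2 fold change was -0.63 (standard error 0.16), as large as that of Grin1, but its MRL/lpr libraries varied more and it missed the threshold (adjusted p = 0.0586 by limma voom with Benjamini-Hochberg adjustment). It passed without MRL/lpr replicate 2, at a log2 fold change of -0.78. Grin2b, which encodes the GluN2B subunit of the developing and adult forebrain, had 597, 641 and 652 CPM in MRL/mpj and 406, 493 and 382 CPM in MRL/lpr libraries. Here the adjusted p was 0.0268 (limma voom with Benjamini-Hochberg adjustment), and the 1.48-fold difference (log2 fold change -0.56, standard error 0.11) fell just short of 1.5-fold. Without MRL/lpr replicate 2 it passed at a log2 fold change of -0.67. Among the MRL/lpr libraries, replicate 2 was the highest for Grin1, Grin2a and Grin2b.

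Grin2c had 65.2, 63.6 and 60.8 CPM in MRL/mpj and 55.2, 41.5 and 59.5 CPM in MRL/lpr libraries. The groups did not overlap, but replicate 2 was the lowest, and the log2 fold change of -0.29 (95% confidence interval -0.61 to 0.03) became -0.14 without it. In the full fit its adjusted p was 0.195 by limma voom with Benjamini-Hochberg adjustment. Grin2d was the least even of the 6. It had 10.9, 11.0 and 12.5 CPM in MRL/mpj libraries and 20.5, 11.7 and 31.8 CPM in MRL/lpr libraries, so that replicate 2 sat within the control range and replicate 3 far above it. Its log2 fold change was 0.80 with a 95% confidence interval of -0.14 to 1.74 (adjusted p = 0.220 by limma voom with Benjamini-Hochberg adjustment). It was 1.15, past the threshold, without MRL/lpr replicate 2, and 0.48 without MRL/lpr replicate 3.

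The GluN3 subunits gave no call. Grin3a had 35.1, 29.7 and 26.4 CPM in MRL/mpj and 31.5, 27.2 and 51.5 CPM in MRL/lpr libraries, with only replicate 3 outside the control range. Its log2 fold change of 0.22 (adjusted p = 0.578 by limma voom with Benjamini-Hochberg adjustment) turned to -0.04 without that library. Grin3b was near the limit of counting, with 0, 8 and 6 counts in MRL/mpj, 18, 7 and 7 in MRL/lpr and 10, 10 and 11 in MRL/lpr+MSC libraries. A count of 0 in MRL/mpj replicate 1 allows up to 0.15 CPM (3 counts, counting error only). Grin3b was therefore not tested against MRL/mpj, and a difference could not be detected at this depth.

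**Figure D2:**
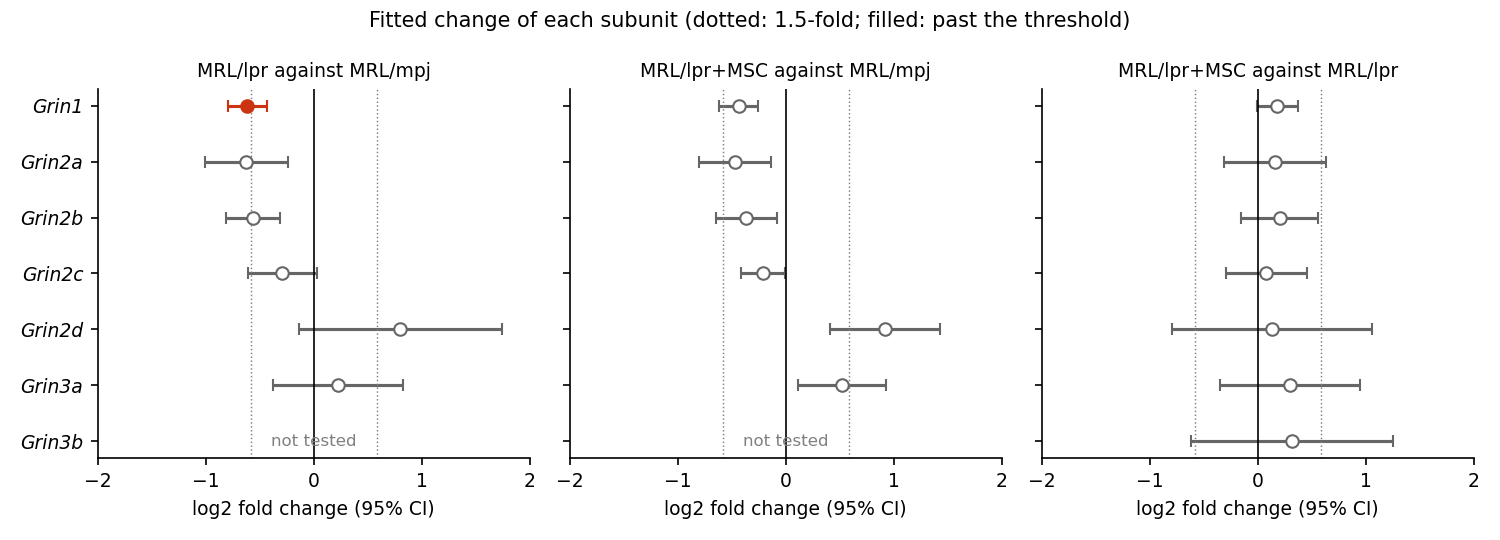
Fitted log2 fold change of each subunit with its 95% confidence interval from limma voom in the 3 comparisons (n = 3 against 3 libraries each; dotted lines mark 1.5-fold). Grin1 in MRL/lpr against MRL/mpj, at -0.62, is the only point past the threshold, and all 7 points of MRL/lpr+MSC against MRL/lpr lie between 0.08 and 0.32 with intervals that include 0. The point of Grin3b, at 0.32, rests on counts near the limit of counting.

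The second comparison set MRL/lpr mice given stem cells against MRL/mpj mice. It shares the MRL/mpj libraries with the first, so the values stand side by side and are not independent. Grin1, Grin2a, Grin2b and Grin2c were again below every control library and Grin2d above, but no subunit passed the threshold, where 3.43% of 16196 genes passed. The groups did not overlap in 5 of the 6 tested subunits, against 29.6% of all genes tested. All 6 had an unadjusted p under 0.05 by limma voom, as did 3710 of all 16196 genes tested.

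Grin1 had 254, 245 and 232 CPM in MRL/lpr+MSC libraries. Its mean of 244 ± 10.8 CPM (SD, n = 3) was 1.35-fold below that of MRL/mpj (log2 fold change -0.44, standard error 0.08, adjusted p = 0.0267 by limma voom with Benjamini-Hochberg adjustment), under the 1.5-fold threshold. Grin2a, with 331, 315 and 235 CPM, differed by a log2 fold change of -0.47 (adjusted p = 0.108 by limma voom with Benjamini-Hochberg adjustment), and Grin2b, with 553, 512 and 408 CPM, one of -0.36 (adjusted p = 0.130). In both genes replicate 3 was the lowest library of the group. Grin2c, with 49.1, 59.7 and 54.4 CPM, was at a log2 fold change of -0.21 (95% confidence interval -0.42 to -0.01, adjusted p = 0.201 by limma voom).

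Grin2d, in contrast to the first comparison, was higher in each MRL/lpr+MSC library than in any control, with 18.6, 18.1 and 29.1 CPM. Its log2 fold change of 0.92 (1.90-fold, standard error 0.22, 95% confidence interval 0.41 to 1.43) had an adjusted p of 0.0588 by limma voom with Benjamini-Hochberg adjustment. It passed without MRL/lpr+MSC replicate 1 (log2 fold change 1.02, adjusted p = 0.0292 by limma voom) and without MRL/lpr+MSC replicate 3 (0.67, adjusted p = 0.0495). Grin3a had 45.3, 34.4 and 51.6 CPM, 1.43-fold above MRL/mpj (log2 fold change 0.52, adjusted p = 0.136 by limma voom with Benjamini-Hochberg adjustment). Its lowest library, replicate 2, was below the highest control.

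Against untreated MRL/lpr mice, the stem-cell-treated group showed no call for any subunit and none for any of the 16758 genes tested (0% of genes, with 647 of all genes and 0 of the 7 subunits at an unadjusted p under 0.05 by limma voom). Grin1, Grin2a, Grin2b, Grin2c, Grin2d and Grin3a had fitted values above 0, from 0.08 for Grin2c to 0.30 for Grin3a. Of all genes tested, 49.0% had values above 0. Grin3b, at 0.32, was near the limit of counting. It passed the count filter through its 10, 10 and 11 counts in MRL/lpr+MSC libraries, against 18, 7 and 7 in MRL/lpr. Its direction is therefore tied to the filter and is not counted with the others. In the same comparison 9 of 10 pan-neuronal markers (median 0.21) and 9 of 10 interneuron markers (median 0.32) were also above 0. The subunits other than Grin3b ran from 0.08 to 0.30, and the part of these markers in the subunit values was not tested. For Grin1 all 3 MRL/lpr+MSC libraries, at 232 to 254 CPM, were above the 3 MRL/lpr libraries, at 204 to 229 CPM, and the log2 fold change was 0.18 (95% confidence interval -0.01 to 0.37, adjusted p = 0.921 by limma voom with Benjamini-Hochberg adjustment). It was the 1 subunit of 7 whose groups did not overlap, against 9.98% of genes. For Grin2a the interval ran from -0.31 to 0.63, for Grin2b from -0.16 to 0.56 and for Grin2d from -0.80 to 1.06. Differences of any size within these limits are compatible with the values, and the smallest detectable difference was not computed.

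The make-up of the GluN2 pool was read within each library as the share of each subunit in the summed FPKM of Grin2a, Grin2b, Grin2c and Grin2d, which does not depend on the scaling of the library. In MRL/mpj mice Grin2b made up 40.1 ± 0.749% (SD, n = 3) of the pool, Grin2a 35.8 ± 1.72%, Grin2c 19.9 ± 1.52% and Grin2d 4.14 ± 0.297%. The 3 control libraries were nearly alike. The share of Grin2d was 10.1, 5.45 and 15.7% in MRL/lpr and 7.74, 7.63 and 14.1% in MRL/lpr+MSC libraries, above the control range of 3.83 to 4.43% in all 6. A share also rises when the rest of the pool falls. In MRL/lpr replicate 2 Grin2d itself, at 2.64 FPKM, was within the 2.48 to 2.87 FPKM of MRL/mpj. Grin2a, Grin2b and Grin2c were below the controls in that library. With union exon lengths the Grin2d share was smaller, at 2.56 to 2.96% in MRL/mpj, 3.66 to 10.9% in MRL/lpr and 5.16 to 9.78% in MRL/lpr+MSC libraries, and the groups still did not overlap. The difference of the means had an exact two-sided permutation p = 0.1 in each comparison with MRL/mpj, which is the smallest p that 3 against 3 libraries allow (0.36 after adjustment over the 18 comparisons of shares and ratios).

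The ratio of Grin2b to Grin2a, the pair whose balance shifts during maturation, hardly differed between groups. By FPKM it was 1.18, 1.05 and 1.14 in MRL/mpj, 1.12, 1.10 and 1.31 in MRL/lpr and 1.20, 1.17 and 1.25 in MRL/lpr+MSC libraries. The mean log2 ratio was higher than in MRL/mpj by 0.06 in MRL/lpr (exact permutation p = 0.7) and by 0.11 in MRL/lpr+MSC (exact permutation p = 0.2), and the 2 MRL/lpr groups differed by 0.05 (exact permutation p = 0.6). Without MRL/lpr replicate 3, the library with the highest ratio, the first difference was -0.02. The summed GluN2 FPKM was 1.78 to 1.90 times that of Grin1 in MRL/mpj, 2.07 to 2.21 times in MRL/lpr and 1.96 to 2.14 times in MRL/lpr+MSC libraries (exact permutation p = 0.1 for both against MRL/mpj, the smallest possible). With union exon lengths the MRL/lpr range of 1.99 to 2.14 remained above the MRL/mpj range of 1.75 to 1.88, but the MRL/lpr+MSC range of 1.87 to 2.09 overlapped it.

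**Figure D3:**
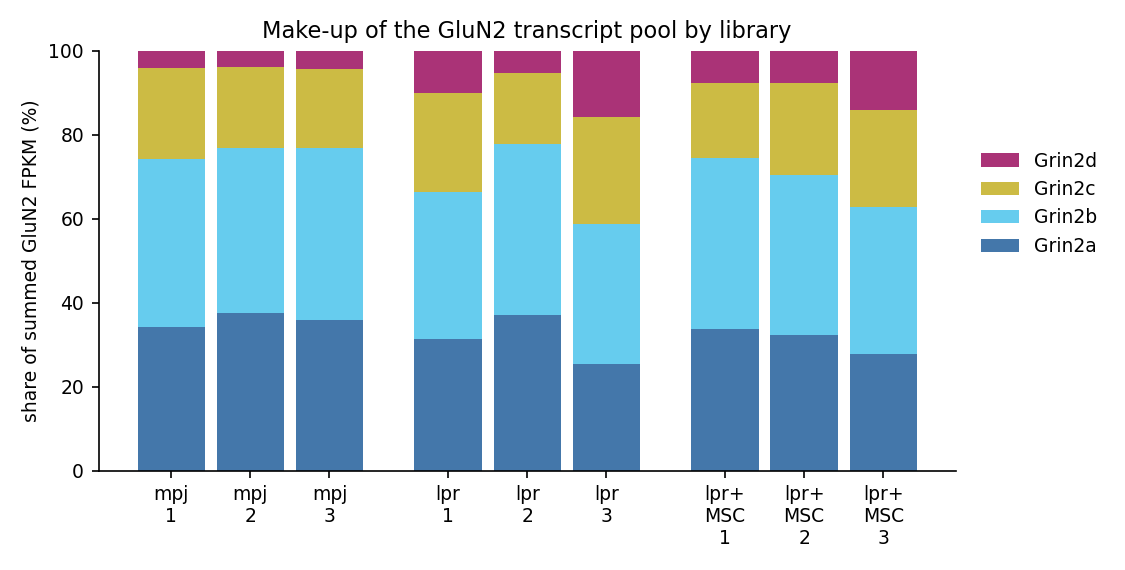
Share of each GluN2 subunit in the summed GluN2 FPKM of each library, in percent, with libraries arranged by group and numbered by replicate. Grin2d takes 3.83 to 4.43% in MRL/mpj libraries and its largest shares, 15.7 and 14.1%, in replicate 3 of the MRL/lpr and MRL/lpr+MSC groups.

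Because whole hippocampus was sequenced, fewer cells of a type and less RNA per cell cannot be told apart, and markers of cell types that use these subunits were set beside them. CA1 pyramidal neuron markers (7 of the 8 listed were found, none at 0 in any library) summed to 777 to 925 CPM in MRL/mpj, 345 to 587 CPM in MRL/lpr and 550.3 to 722 CPM in MRL/lpr+MSC libraries. As with Grin1, every MRL/lpr and MRL/lpr+MSC library was below the controls. MRL/lpr replicate 2, with the lowest CA1 sum, nevertheless had the highest Grin1, Grin2a and Grin2b of its group. The 10 pan-neuronal markers summed to 5582 to 6343 CPM in MRL/lpr against 7142 to 8221 CPM in MRL/mpj libraries, while MRL/lpr+MSC libraries had 6048 to 8652 CPM, the highest being replicate 1, above every control. In MRL/lpr against MRL/mpj, 4 of the 10 had an unadjusted p under 0.05 by limma voom, beside 5081 of all 16697 genes tested. The threshold was passed by 0 of 10, beside 5.79% of all genes, and the median log2 fold change of the 10 was -0.22. The part of these markers in the subunit values was not tested.

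Of the interneuron list (10 of 10 found, none at 0), Gad1, Gad2, Slc32a1 and Lhx6 were highest in the 2 libraries where Grin2d was highest. The sum of the list was 1709 CPM in MRL/lpr replicate 3 and 1416 CPM in MRL/lpr+MSC replicate 3, the 2 libraries with the highest Grin2d at 31.8 and 29.1 CPM, and 523 CPM in MRL/lpr replicate 2, which had the lowest Grin2d of the MRL/lpr group. Gad1, Gad2 and Slc32a1, which make and load GABA, gave 1392 and 1113 CPM of these sums. The other 7 markers, split off after the values were seen, summed to 317 and 303 CPM in these 2 libraries, within or below the 315 to 363 CPM of the controls. Among these 7, Lhx6 differed from the sum. It had 17.45 and 22.76 CPM in the 2 libraries and at most 16.13 CPM in any other. Gad2 had 213, 102 and 565 CPM in MRL/lpr libraries against 130, 135 and 140 CPM in MRL/mpj. Pvalb, Vip and Npy, markers of interneuron classes, fell in the libraries labelled MRL/lpr, with log2 differences of -0.98, -1.19 and -0.72 (limma voom, Benjamini-Hochberg adjusted p = 0.00339, 0.00621 and 0.0254). MRL/lpr+MSC replicates 1 and 2 and MRL/lpr replicate 1 had 18.1 to 20.5 CPM of Grin2d, against 10.9 to 12.5 CPM in the controls. Their interneuron sums, 771 to 855 CPM, were close to the 764 to 835 CPM of the controls, but the parts of the sum differed. Gad1, Gad2 and Slc32a1 summed to 609 CPM in MRL/lpr replicate 1 and 593 CPM in MRL/lpr+MSC replicate 2. The controls had 449 to 471 CPM and MRL/lpr+MSC replicate 1 had 445 CPM. The other 7 markers summed to 227 CPM in MRL/lpr replicate 1, 263 CPM in MRL/lpr+MSC replicate 2 and 326 CPM in MRL/lpr+MSC replicate 1. The controls had 315 to 363 CPM. Thalamic neuron markers, at 334 and 377 CPM, and striatal neuron markers, at 276 and 363 CPM, were likewise highest in replicate 3 of the MRL/lpr and MRL/lpr+MSC groups, against 182 to 234 CPM and 181 to 202 CPM in MRL/mpj libraries. The part of these markers in the Grin2d values was not tested.

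**Figure D4:**
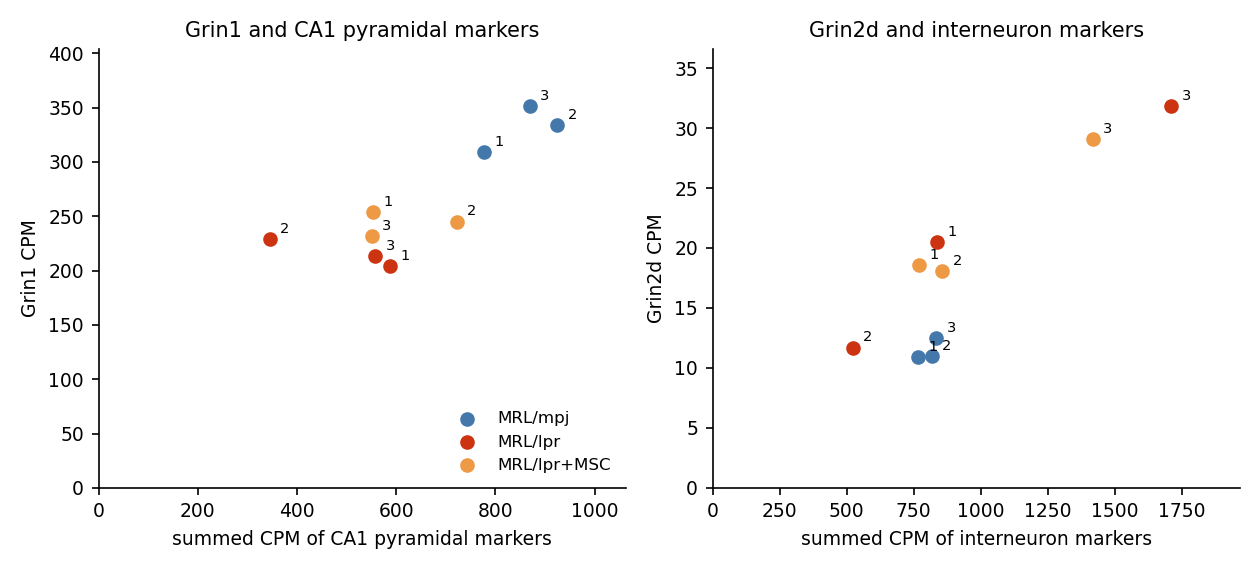
Grin1 CPM against the summed CPM of 7 CA1 pyramidal markers (left) and Grin2d CPM against the summed CPM of 10 interneuron markers (right), 1 point per library, numbered by replicate and coloured by group, with all axes starting at 0. Replicate 3 of both MRL/lpr groups lies apart at the upper right for Grin2d, and the 3 MRL/mpj libraries lie apart at the upper right for Grin1.

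Across all 9 libraries, the genes whose pattern was most like that of Grin1 were Nrip1, Gria3, Slc1a1, Ndrg3 and Ttll11. Likeness was the root mean square difference of centred log2 CPM over the 9 libraries, among 11878 genes whose mean reached 5 CPM. Their values were 0.06, where the spread of Grin1 itself around its mean was 0.27. Their log2 fold changes ran from -0.66 (Ndrg3) to -0.49 (Ttll11) in MRL/lpr and from -0.50 (Ndrg3) to -0.37 (Gria3) in MRL/lpr+MSC against MRL/mpj. Values near those of Grin1 follow from the choice of these genes over the same 9 libraries and are no separate result. Gria3 encodes an AMPA receptor subunit and Slc1a1 a neuronal glutamate transporter.

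The promoter of Grin1, the subunit that passed, is shown because the gene's change is the result on which the family's call rests. RefSeq start sites on GRCm38 gave a promoter for 4 of the 7 subunits (Grin1, Grin2c, Grin2d and Grin3b). The 250 bases upstream of Grin1 are chr2:25319188-25319437 on the minus strand, printed 5′ to 3′ on the gene's strand, with capitals at E-boxes (CACGTG) and at the core of the cyclic AMP response element (TGACG, or its reverse complement CGTCA).
Grin1: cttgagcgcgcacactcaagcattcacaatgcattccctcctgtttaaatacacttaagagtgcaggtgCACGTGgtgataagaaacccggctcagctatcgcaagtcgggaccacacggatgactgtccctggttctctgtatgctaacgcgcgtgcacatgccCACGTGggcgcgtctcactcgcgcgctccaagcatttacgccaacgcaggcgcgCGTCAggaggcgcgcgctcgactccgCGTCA
Both strands were searched, and the matches in the Grin1 window did not overlap. The Grin1 window held 2 E-boxes, a motif present in 6.02% of 32851 promoter windows of the same length, and 2 response element cores, present in 17.8%. It held no GC box (GGGCGG, 32.7% of windows), of which the Grin2c window held 3, and the windows of Grin2d and Grin3b held none of these motifs. A match is a description of the letters only.

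Around the receptor, 71 genes in 5 lists were followed, all of them found. In MRL/lpr against MRL/mpj, 10 of the 71 (14.1%) passed the threshold, 3 higher and 7 lower, beside 5.79% of all genes. The median log2 fold change of the 71 was -0.16, where that of all genes tested was 0.02. In the list of co-agonist supply and clearance, 1 of 9 genes passed, Ddo, whose substrates are not the co-agonists glycine and D-serine. Ddo, the oxidase of acidic D-amino acids such as NMDA itself and D-aspartate, had 9.63, 12.2 and 10.01 CPM in MRL/mpj and 22.7, 16.9 and 23.2 CPM in MRL/lpr libraries (log2 fold change 0.97, adjusted p = 0.0246 by limma voom with Benjamini-Hochberg adjustment). Srr, which makes D-serine, was at -0.20 on the log2 scale, short of the threshold.

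Of 16 scaffolds and trafficking partners, 1 fell and 1 rose. Kif17, the motor that carries GluN2B vesicles along dendrites, had 20.2, 23.6 and 26.2 CPM in MRL/mpj and 12.6, 15.2 and 13.8 CPM in MRL/lpr libraries (log2 fold change -0.75, adjusted p = 0.0218 by limma voom with Benjamini-Hochberg adjustment). Actn2, an actinin that links the receptor to actin, rose (log2 fold change 0.65, adjusted p = 0.0482). Dlg4, which encodes the scaffold PSD-95, was at -0.30 on the log2 scale (adjusted p = 0.0327 by limma voom), under the 1.5-fold threshold.

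Of 20 kinases, phosphatases and anchors, 3 fell and none rose. Prkcb, a form of protein kinase C, had 486, 479 and 538 CPM in MRL/mpj and 331, 265 and 341 CPM in MRL/lpr libraries (log2 fold change -0.69, adjusted p = 0.0187 by limma voom with Benjamini-Hochberg adjustment). Ppp3r1, the regulatory subunit of calcineurin, fell by 0.71 on the log2 scale. Of 18 genes of calcium-dependent signalling downstream, 3 fell and none rose. Camk4, a calmodulin-dependent kinase of the nucleus, had 195, 215 and 252 CPM in MRL/mpj and 93.7, 119 and 78.2 CPM in MRL/lpr libraries (log2 fold change -1.20, adjusted p = 0.0136 by limma voom with Benjamini-Hochberg adjustment). Itpka, an inositol trisphosphate kinase of dendritic spines, fell by 0.77 and Rasgrp1, a calcium-responsive Ras activator, by 0.75. Of 8 transcription factors that act on Grin promoters, 1 passed. Rest, a repressor of neuronal genes, had 6.79, 9.97 and 6.42 CPM in MRL/mpj and 14.6, 13.3 and 12.8 CPM in MRL/lpr libraries (log2 fold change 0.83, adjusted p = 0.0362 by limma voom with Benjamini-Hochberg adjustment). The count of 10 fell to 4 without MRL/mpj replicate 1, to 3 without MRL/mpj replicate 2, to 1 without MRL/mpj replicate 3 and to 4 without MRL/lpr replicate 1.

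In MRL/lpr+MSC against MRL/mpj, 5 of 70 tested genes of these lists (7.14%) passed, beside 3.43% of all genes. Rasgrp1 and Itpka fell by 0.60 and 0.62 on the log2 scale. Actn2 rose by 0.66, Slc1a4, a transporter of neutral amino acids including D-serine, by 0.60, and Camk2d by 1.11. Camk2d, the delta form of calmodulin kinase II, had 79.5, 71.4 and 118 CPM against 34.0 to 48.6 CPM in MRL/mpj libraries, and 142 CPM in MRL/lpr replicate 3, so replicate 3 was again the highest of both groups. The count was 0 without MRL/mpj replicate 1 or 2, 2 without MRL/mpj replicate 3, 8 without MRL/lpr+MSC replicate 1 and 1 without MRL/lpr+MSC replicate 3. Against MRL/lpr, 0 of 71 passed by limma voom, as did 0 of all 16758 genes tested. Of the 71, 4 had an unadjusted p under 0.05, beside 647 of all 16758 genes, and the median log2 fold change was 0.07.

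**Figure D5:**
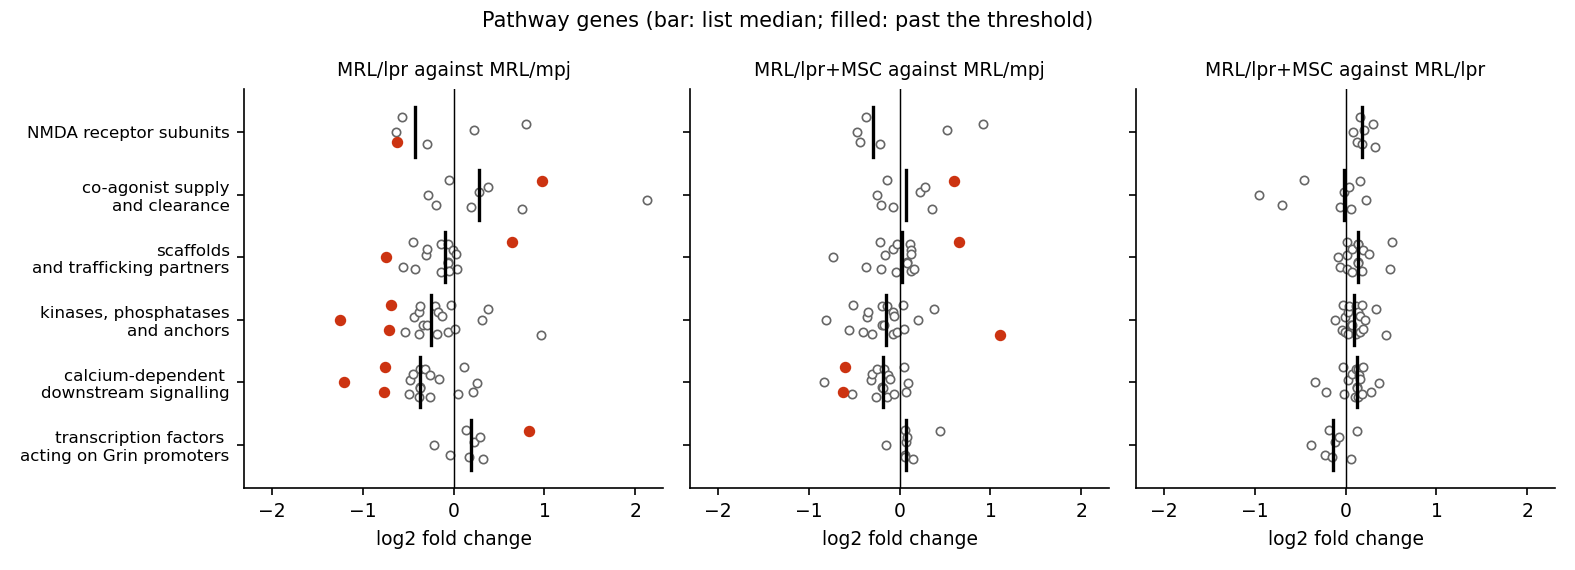
Fitted log2 fold change of each tested gene of the subunit list and the 5 pathway lists in the 3 comparisons (limma voom, 3 against 3 libraries), with filled points past the threshold and a bar at each list's median. In MRL/lpr against MRL/mpj the medians of the kinase list and the calcium signalling list, -0.25 and -0.37, lie below 0 with that of the subunits, -0.43, while those of the co-agonist list, 0.28, and the transcription factor list, 0.20, lie above.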

How the data were processed

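The authors aligned reads to GRCm38 using STAR and HTSeq for alignment and counting (the labels name TopHat2) and deposited raw counts of 47643 genes, and FPKM values that the authors made from these counts and gene lengths. Every FPKM table followed the counts of its own library. Of the columns of values, 0 had no sample.

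Members and lists were chosen with earlier results of these data known. Counts were scaled by TMM, genes with the equivalent of 10 counts in a library of median size in at least 3 libraries were kept, and each pair of groups was fitted on its 6 libraries with limma voom (limma 3.58.1, R 4.3.3, robust moderation), with p-values adjusted by Benjamini-Hochberg across every tested gene. The threshold was an adjusted p under 0.05 and a 1.5-fold change, as in the study. The planned edgeR and DESeq2 fits were not run, because the separator of the matrix kept its unit from being registered as counts. The fit was tested on simulated data. Shares and ratios were compared by exact permutation (scipy 1.17.1).

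The text names all 7 subunits, genes of the 5 pathway lists past the threshold or needed for a result, 5 genes most like each subunit that passed, and markers from 13 cell type lists (104 genes, of which 103 were found). Srr and Dlg4 were named after their values were seen, and some genes past the threshold are not reported here. Names and positions came from GENCODE, which matched 47224 genes. Alternatives were other size factors and filters, testing directly against 1.5-fold, fitting all 9 libraries together, a replicate block, correcting for length and GC content, and leaving out single libraries. Library quality weights were added after the data were seen. Counts per library give intervals and limits for counting error only.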

Additional observations from a re-analysis of the deposited data

How the results depend on the processing

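Of 284 refitted log2 fold changes of single subunits, 267 kept their direction and their side of the threshold, 9 newly passed, 4 no longer passed and 4 changed sign. Those that changed sign were Grin3a in MRL/lpr against MRL/mpj without MRL/lpr replicate 3 (-0.0405) and, in MRL/lpr+MSC against MRL/lpr, Grin2c without MRL/lpr replicate 2 (-0.0805, of a range to 0.188) and Grin2d without MRL/lpr replicate 2 (-0.233, of a range to 0.457) or without MRL/lpr+MSC replicate 3 (-0.0984). In MRL/lpr against MRL/mpj, the number of subunits past the threshold was 1. It was 0 with a test against a 1.5-fold change, 2 (Grin1 and Grin2a) with the replicate block and with library quality weights, and 0 to 4 when 1 library was left out. In MRL/lpr+MSC against MRL/mpj it was 0, but 1 (Grin2d) with no filter on low counts and with library quality weights, and 0 to 1 when 1 library was left out. The pathway genes past the threshold, 10 in the first comparison, numbered 0 with a test against a 1.5-fold change and 1 to 13 when 1 library was left out. In the second comparison, with 5, they numbered 0 with that test, 3 with no filter, 1 with all 9 libraries in one fit, 9 with quality weights, 2 with the replicate block plus correction for GC content and length, and 0 to 8 when 1 library was left out. In MRL/lpr+MSC against MRL/lpr all these counts were 0 under every setting run. The differences in the log2 ratio of Grin2b to Grin2a ran from -0.0166 to 0.11, from 0.06 to 0.145 and from -0.00105 to 0.13 in the 3 comparisons when 1 library was left out, and union exon length gave the same values as FPKM. The cause of these shifts was not tested. The labels tie no replicate number to a shared batch, and the deviations of same-numbered libraries did not correlate above 0.1 in every pair, so the numbers were not taken to pair the libraries. For replicates 1, 2 and 3 the correlations were -0.02, 0.13 and 0.05 in MRL/lpr against MRL/mpj, -0.06, 0.13 and 0.22 in MRL/lpr+MSC against MRL/mpj, and -0.20, 0.25 and 0.40 in MRL/lpr+MSC against MRL/lpr, positive for replicates 2 and 3 in each. The fits with edgeR and DESeq2 were not run.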

Other observations

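The other cell type markers bear on what the hippocampal libraries held. In MRL/lpr against MRL/mpj, 4 of 7 CA1 pyramidal markers fell by limma voom (among them Fibcd1, Mpped1 and Pou3f1, with log2 fold changes from -1.27 to -1.11), 3 of 10 interneuron markers fell, 1 of 10 striatal markers (Rgs9, 0.96) rose, and 1 of 6 endothelial markers (Cldn5, 0.73) rose. None passed among the pan-neuronal, dentate granule, CA3 pyramidal, thalamic, astrocyte, oligodendrocyte, oligodendrocyte precursor, microglia and choroid plexus lists. The 8 choroid plexus markers had a median of 1.61, and their sum was highest in MRL/lpr replicate 2. In MRL/lpr+MSC against MRL/mpj, Fibcd1 fell (-0.79) and Cldn5 rose (0.87), and no other listed marker passed. Against MRL/lpr no marker passed by limma voom, where 0 of all 16758 genes passed and 647 had an unadjusted p under 0.05.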
